A study of Xenopus laevis with 17 samples.

Results

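Multiciliated cells of frog skin were made in animal caps, the ectoderm cut from early embryos of Xenopus laevis, and caps that received a foxn4 morpholino were compared with caps given a CRISPR reagent against foxj1. The comparison rests on 4 of the 17 samples of the series, chosen by their titles alone: 2 libraries of Foxn4 morpholino caps and 2 libraries of Foxj1 CRISPR caps. All gene models of these RNA libraries were used. The other RNA libraries, 2 of Foxn4 CRISPR caps and 3 of control caps, are given beside them.

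Every cap had been injected with mRNA for Multicilin, the coiled-coil protein that starts the multiciliated programme, so the controls carried it too. Per the labels, inducible proteins were fused to the human glucocorticoid receptor and activated at mid-stage 11 by adding dexamethasone to 20 µM, caps were dissected at stage 10 and pooled as 20 per condition, and harvest followed after 9 h at 22 °C, at stage 18. The Foxn4 morpholino caps received Multicilin with a foxn4 morpholino, an antisense oligonucleotide. The Foxj1 CRISPR caps received Multicilin with Cas9 protein plus a foxj1 guide RNA, and the Foxn4 CRISPR caps received the same reagent with a guide against foxn4. Injection of Cas9 into an embryo leaves a mosaic of edited and unedited cells. The controls, Multicilin alone, were re-used from an earlier study, and differences between them and the new libraries cannot be told apart from differences between the studies. Target (Foxn4 or Foxj1) and reagent (morpholino or Cas9) also differ together here and cannot be told apart in the comparison itself. The Foxn4 CRISPR caps share the target with one group and the reagent with the other, and their values are given beside many of the genes below.

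Foxj1, of the forkhead family, is known as a master activator of motile cilium genes: dynein arms, radial spokes, the central pair and the proteins that line the inside of the doublet microtubules. Foxn4 is a forkhead factor known from retina and spinal cord, and it is also present in multiciliated cells. Multicilin acts with E2F proteins to drive centriole amplification and to raise Foxj1. Embryonic frog skin holds ionocytes, goblet cells, small secretory cells and basal cells beside the multiciliated ones. These caps are bulk samples, in which fewer cells of a type and less RNA per cell cannot be told apart.

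The morpholino libraries held 8570033 and 16250144 estimated counts, and the Foxj1 CRISPR libraries 12279405 and 12147613. The other 5 RNA libraries held between 8265823 and 22041340. Each read matched 1.93 models on average in both morpholino libraries and between 1.52 and 1.62 in the other 7, so the sharing of reads among similar gene copies differed with the group; results on uniquely matching reads are given at the end. Replicates differed by more than sampling noise, with a chi-square per degree of freedom of 47.4 for the morpholino pair and 17.7 for the Foxj1 CRISPR pair. Whether replicates came from different clutches is not in the labels, and the p-values therefore reflect only how far these libraries spread, which may be technical. In a principal component analysis, the largest axis (53.4% of the variance) did not separate the compared groups. The morpholino libraries lay there at -88.3 and -60.5 and the Foxj1 CRISPR libraries at -86.5 and -58.7. The Foxn4 CRISPR libraries lay at -36.4 and -19.5, and the controls between 109.2 and 121. The next axis (18.4%) did separate them. Along it the morpholino libraries stood at 90.7 and 71.8, the 4 CRISPR libraries between -57.3 and -36.1, and the controls between 2 and 11.

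Counts of gene models were tested with edgeR's quasi-likelihood test over all 9 RNA libraries, with calls at an adjusted p (Benjamini-Hochberg) under 0.05. Of 19058 models tested, 1411 were called, which is 7.40% of them. Of these, 896 (4.70%) were higher and 515 (2.70%) lower in the Foxn4 morpholino caps than in the Foxj1 CRISPR caps. An unadjusted p under 0.05 was reached by 4605 models, and the median log2 difference over all models tested was 0.07. A log2 difference above 2 in size was seen in 701 of the called models. The libraries of the compared groups did not overlap in 1410 of the 1411 called models, so non-overlap marks no called gene out.

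The same fit gave 276 calls (1.45%) between Foxn4 CRISPR and Foxj1 CRISPR, which share the reagent. Of these, 272 (1.43%) were higher and 4 (0.0210%) lower in the Foxn4 CRISPR caps. Between Foxn4 morpholino and Foxn4 CRISPR, which share the target, 1042 models (5.47%) were called, 505 (2.65%) higher and 537 (2.82%) lower in the morpholino caps. These comparisons share libraries with the first one, so they are given side by side and not as separate evidence.

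The number of calls depended on single libraries. It was 178 without Foxj1 CRISPR replicate 1, 326 without Foxj1 CRISPR replicate 2, 455 without Foxn4 morpholino replicate 1 and 820 without Foxn4 morpholino replicate 2. It was 881 and 893 without Foxn4 CRISPR replicate 1 or 2, and 2188 without Multicilin control replicate 2. Each of the first 4 of these fits leaves an arm with 1 library, which is then assumed to vary like the other groups.

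The models of the targeted genes did not pass the test at the RNA level. The foxj1 model on scaffold 71264 (620223 to 626121, plus strand, version 7.1 assembly) stood at 1070 and 878 CPM (counts scaled to each library's effective size) in the Foxn4 morpholino libraries. It stood at 1050 and 1070 CPM in the Foxj1 CRISPR libraries, with a log2 difference of -0.12 (approximate standard error, SE, 0.26, adjusted p = 0.825). Throughout, SE is the size of the log2 difference divided by the square root of the test's F statistic, so it was derived from the test. The other two models of FOXJ1 differed by 0.03 (SE 0.27) and 0.19 (SE 0.39), with adjusted p-values of 0.964 and 0.815. The foxn4 models differed by -0.25 (SE 0.61, adjusted p = 0.839) and 0.67 (SE 0.58, adjusted p = 0.519). The first of them, on scaffold 44061, stood at 445 and 506 CPM in the Foxn4 morpholino libraries and at 549 and 585 CPM in the Foxj1 CRISPR libraries. Small CRISPR deletions and translation-blocking or splice-blocking morpholinos need not lower the RNA count of their target, and the labels do not say which kind the morpholino is, and the RNA levels are no check on the labelling. The 2 models of MCIDAS, the gene of Multicilin, differed by 0.08 (SE 0.43) and -0.03 (SE 0.57), with adjusted p-values of 0.93 and 0.985. Reads of injected Multicilin RNA may be among these counts, which was not tested.

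To describe the groups by function, 23 lists of genes were used, with 641 tested models of 382 symbols. Of these models, 66 were called higher and 20 lower in the Foxn4 morpholino caps, together 13.4% against 7.40% of all models. The median log2 difference over the 641 was 0.19. Without Foxj1 CRISPR replicate 1 only 17 of them were called, without Foxj1 CRISPR replicate 2 31, and without Foxn4 morpholino replicate 1 or 2 35 or 50. The count was 55 without Foxn4 CRISPR replicate 1 and 133 without Multicilin control replicate 2.

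**Figure D1:**
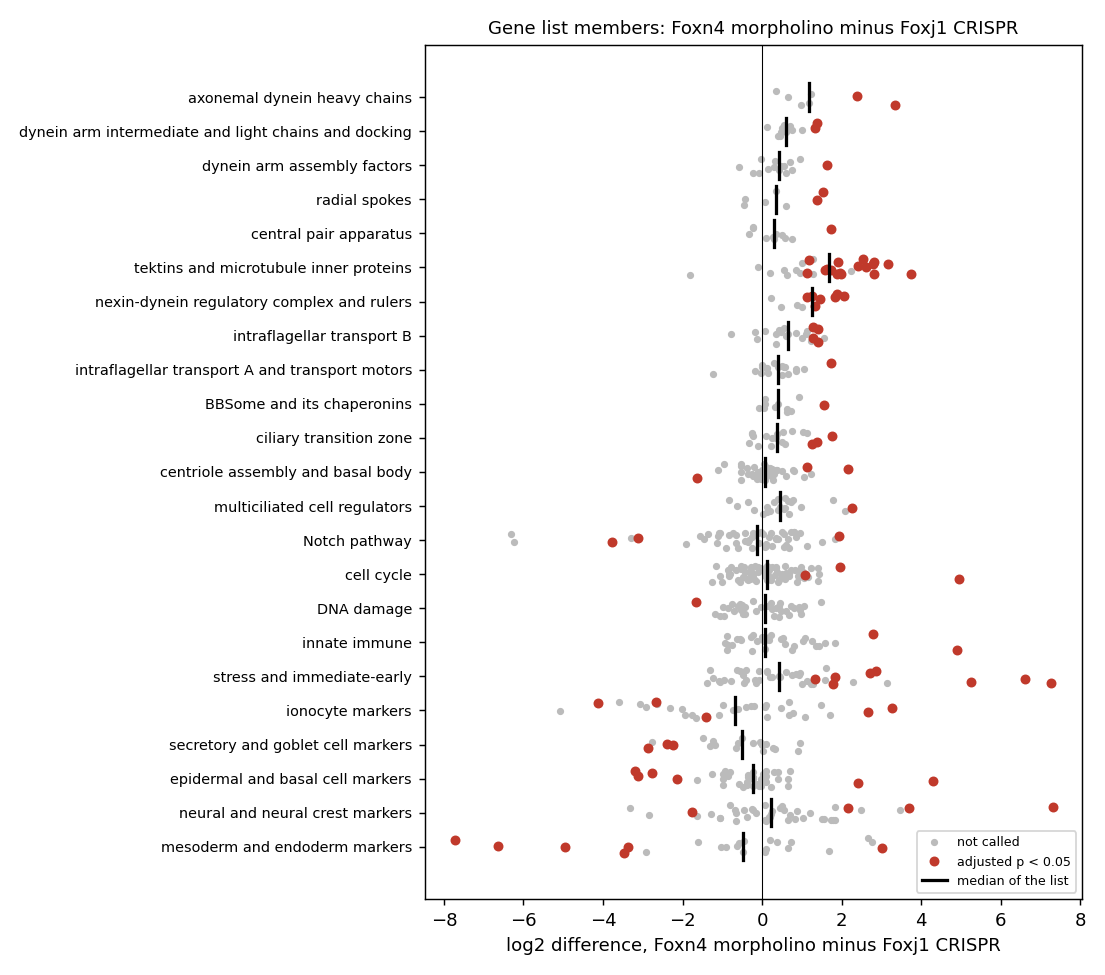
Log2 difference (horizontal axis) of every tested model in the 23 gene lists (vertical axis), Foxn4 morpholino minus Foxj1 CRISPR. Red points passed an adjusted p under 0.05, grey points did not, and black bars are list medians, which reach 1.69 for tektins and microtubule inner proteins and -0.67 for ionocyte markers; vertical scatter within a list carries no value.

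Part of the cilium motility genes were higher in the Foxn4 morpholino caps than in the Foxj1 CRISPR caps, most of them tektins, microtubule inner proteins and nexin-dynein parts. Over the 7 lists of motility parts, 92 models of 74 symbols were tested, and 32 were called higher and 0 lower, which is 34.8% against 4.70% of all models called higher. Tektins and inner proteins held 17 of the 32 calls and the nexin-dynein list 7. The median log2 difference was 0.76 against 0.07 for all models, and 81 of the 92 were positive. Summed over these models, the level was 18000 and 21900 CPM in the morpholino libraries and 9760 and 12200 CPM in the Foxj1 CRISPR libraries. The 2 groups did not overlap, and both lay below the Foxn4 CRISPR libraries at 28600 and 28700 CPM and the controls at 35400 to 56700 CPM. Foxj1 CRISPR replicate 1 carried the lowest sum of all 9 libraries.

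In the comparison of Foxn4 CRISPR with Foxj1 CRISPR, 38 of the 92 motility models were called higher and 0 lower, against 1.43% and 0.0210% of all models. Between Foxn4 morpholino and Foxn4 CRISPR, 0 were called higher and 2 lower, which is near the 2.65% and 2.82% of all models. The number called between morpholino and Foxj1 CRISPR was 3 without Foxj1 CRISPR replicate 1, 18 without Foxj1 CRISPR replicate 2, 15 and 17 without Foxn4 morpholino replicate 1 or 2, and 21 without Foxn4 CRISPR replicate 1.

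The axonemal dynein heavy chains are the motors that bend the cilium, and only 6 of the 13 symbols in their list had a tested model. The tested models were all positive (7 of 7 models, median log2 difference 1.19). Of them 2 passed the test (28.6% against 4.70% of all models called higher). DNAH6, an inner arm heavy chain on scaffold 59965 (1058072 to 1202998, minus strand), stood at 228 and 347 CPM in the Foxn4 morpholino libraries and at 3.83 and 53.4 CPM in the Foxj1 CRISPR libraries. All morpholino values lay above both Foxj1 CRISPR values, and Foxj1 CRISPR replicate 1 was far below replicate 2. The log2 difference was 3.33 (SE 0.85, adjusted p = 0.0428), and the call was lost when any 1 of 6 libraries was left out. In the Foxn4 CRISPR libraries DNAH6 reached 507 and 617 CPM and in the controls 978 to 1430 CPM.

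DNAH7, another inner arm heavy chain, stood at 442 and 425 CPM in the Foxn4 morpholino libraries against 42 and 124 CPM in the Foxj1 CRISPR libraries on scaffold 139113, a log2 difference of 2.38 (SE 0.44, adjusted p = 0.0132). The same DNAH7 model reached 667 and 690 CPM in the Foxn4 CRISPR libraries. Its second model, on scaffold 145781, differed by 1.24 (SE 0.36) and did not pass the test (adjusted p = 0.0615). DNAH9, the outer arm heavy chain, stood at 620 and 1040 CPM in the morpholino libraries and at 256 and 472 CPM in the Foxj1 CRISPR libraries, a log2 difference of 1.19 that missed the threshold (adjusted p = 0.0808).

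Smaller dynein arm parts differed less. Of 13 models of intermediate chains, light chains and docking proteins, 2 were called higher (15.4% against 4.70% of all models called higher). The median log2 difference was 0.59. CCDC63, a protein of the docking complex family, stood at 428 and 450 CPM in the Foxn4 morpholino libraries and at 158 and 177 CPM in the Foxj1 CRISPR libraries (log2 difference 1.39, SE 0.25, adjusted p = 0.0117). DNAL1, a light chain of the outer arm, rose from 42.5 and 54.2 CPM with Foxj1 CRISPR to 126 and 119 CPM with the morpholino (1.34, SE 0.32, adjusted p = 0.0332). The intermediate chain DNAI1 did not pass, at 287 and 349 CPM against 237 and 246 CPM (0.40, adjusted p = 0.453). Of 15 models of the cytoplasmic factors that assemble dynein arms, 1 was called (6.67%, near the 4.70% of all models called higher). It was CCDC103, with 64.8 and 95 CPM against 24.7 and 27.5 CPM (1.62, SE 0.38, adjusted p = 0.0315). The calls of CCDC63, DNAL1 and CCDC103 did not hold in every fit that left 1 library out. Over those fits their log2 differences ranged from 1.3 to 1.47, from 1.17 to 1.52 and from 1.31 to 1.86.

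Radial spokes and the central pair, which pass signals to the dynein arms, were mixed. Among 7 radial spoke models, 2 were called higher (28.6% against 4.70% of all models called higher). They were RSPH3, at 280 and 276 CPM against 71.3 and 122 CPM (1.52, SE 0.32, adjusted p = 0.0199), and ROPN1L, at 282 and 238 CPM against 95 and 104 CPM (1.39, SE 0.34, adjusted p = 0.0359). RSPH1, a spoke head protein, had a log2 difference of -0.44 (adjusted p = 0.564). Among 11 central pair models 1 was called (9.09% against 4.70% of all models called higher). It was HYDIN, a very large protein of the central pair. HYDIN stood at 327 and 424 CPM with the morpholino and at 102 and 126 CPM with Foxj1 CRISPR (1.72, SE 0.28, adjusted p = 0.00848). It stood at 601 and 438 CPM with Foxn4 CRISPR. The calls of RSPH3, ROPN1L and HYDIN did not hold in every fit that left 1 library out. Over those fits their log2 differences ranged from 1.17 to 1.95, from 1.25 to 1.5 and from 1.51 to 1.88.

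Members of the central pair list also held the motility models called lower with the morpholino than with Foxn4 CRISPR. TTC40, a central pair protein, stood at 33.2 and 48.0 CPM in the Foxn4 morpholino libraries and at 36.9 and 58.8 CPM in the Foxj1 CRISPR libraries, so these ranges overlapped (log2 difference -0.23, adjusted p = 0.67). It reached 178 and 194 CPM in the Foxn4 CRISPR libraries and 330 to 409 CPM in the controls, and morpholino minus Foxn4 CRISPR was -2.19 (adjusted p = 0.0047). PCDP1 was similar, with 26.7 and 47.2 CPM with the morpholino, 35.5 and 57.0 CPM with Foxj1 CRISPR, and 117 and 139 CPM with Foxn4 CRISPR (morpholino minus Foxn4 CRISPR -1.79, adjusted p = 0.027). TTC40 and PCDP1 were chosen after their values were seen.

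Tektins and microtubule inner proteins, which bind the walls of the doublet microtubules, held the most calls. Of 28 models, 17 were called higher and 0 lower (60.7% against 4.70% of all models called higher), the median log2 difference was 1.69, and 26 were positive. EFHB, an inner protein with EF-hand domains on scaffold 36134 (1821778 to 1845457, plus strand), stood at 72.8 and 89.8 CPM in the Foxn4 morpholino libraries and at 2.17 and 9.94 CPM in the Foxj1 CRISPR libraries. The log2 difference was 3.75 (SE 0.58, adjusted p = 0.00614). EFHB reached 97.7 and 110 CPM in the Foxn4 CRISPR libraries and 143 to 252 CPM in the controls, so the low values belonged to the Foxj1 CRISPR libraries. The call held when any single library was left out.

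MNS1, an inner protein needed for ciliary beating in mice, showed the same order in both of its models. The model on scaffold 351606 (1808967 to 1822835, plus strand) stood at 152 and 175 CPM with the Foxn4 morpholino, at 13.8 and 22.5 CPM with Foxj1 CRISPR and at 139 CPM in both Foxn4 CRISPR libraries. Morpholino minus Foxj1 CRISPR was 3.17 (SE 0.34, adjusted p = 0.00158), and morpholino minus Foxn4 CRISPR was 0.23 (adjusted p = 0.689). The second model, on scaffold 59883, differed by 1.95 (SE 0.30, adjusted p = 0.00614).

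The other called members included TEKT1 and TEKT2, tektins that form filaments along the doublets. TEKT1 differed by 2.80 (SE 0.51, adjusted p = 0.0123) and 2.41 (SE 0.34, adjusted p = 0.00433) in its 2 models. TEKT2 differed by 1.64 (SE 0.36, adjusted p = 0.0244) in the called model, and its model on scaffold 30711 did not pass (1.27, SE 0.40, adjusted p = 0.0803). The lowest member, TEKT3, stood at 2.26 and 9.54 CPM with the morpholino and at 17.1 and 25.9 CPM with Foxj1 CRISPR, which did not pass (-1.82, SE 0.57, adjusted p = 0.0781). Without Foxj1 CRISPR replicate 1, 2 of the 28 models were called, and without Foxn4 morpholino replicate 1 or 2 it was 11 or 10.

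The nexin-dynein regulatory complex, which links neighbouring doublets, and the ruler proteins that set the axonemal repeat were the other list with many calls. Of 11 models, 7 were called higher and 0 lower (63.6% against 4.70%), and all 11 were positive, with a median of 1.25. TCTE1, a subunit of the complex, stood at 81.4 and 101 CPM with the Foxn4 morpholino and at 20.8 and 23.4 CPM with Foxj1 CRISPR (2.05, SE 0.32, adjusted p = 0.0066), with 118 and 90.8 CPM in the Foxn4 CRISPR libraries. EFCAB2, another subunit, stood at 225 and 187 CPM against 46.1 and 66.5 CPM (1.87, SE 0.32, adjusted p = 0.0101). The rulers CCDC39 and CCDC40 differed by 1.14 (SE 0.28, adjusted p = 0.0354) and 1.34 (SE 0.33, adjusted p = 0.0368). The count was 0 without Foxj1 CRISPR replicate 1, 2 without replicate 2 of that group or without Foxn4 morpholino replicate 1, and 4 without morpholino replicate 2 or Foxn4 CRISPR replicate 1.

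**Figure D2:**
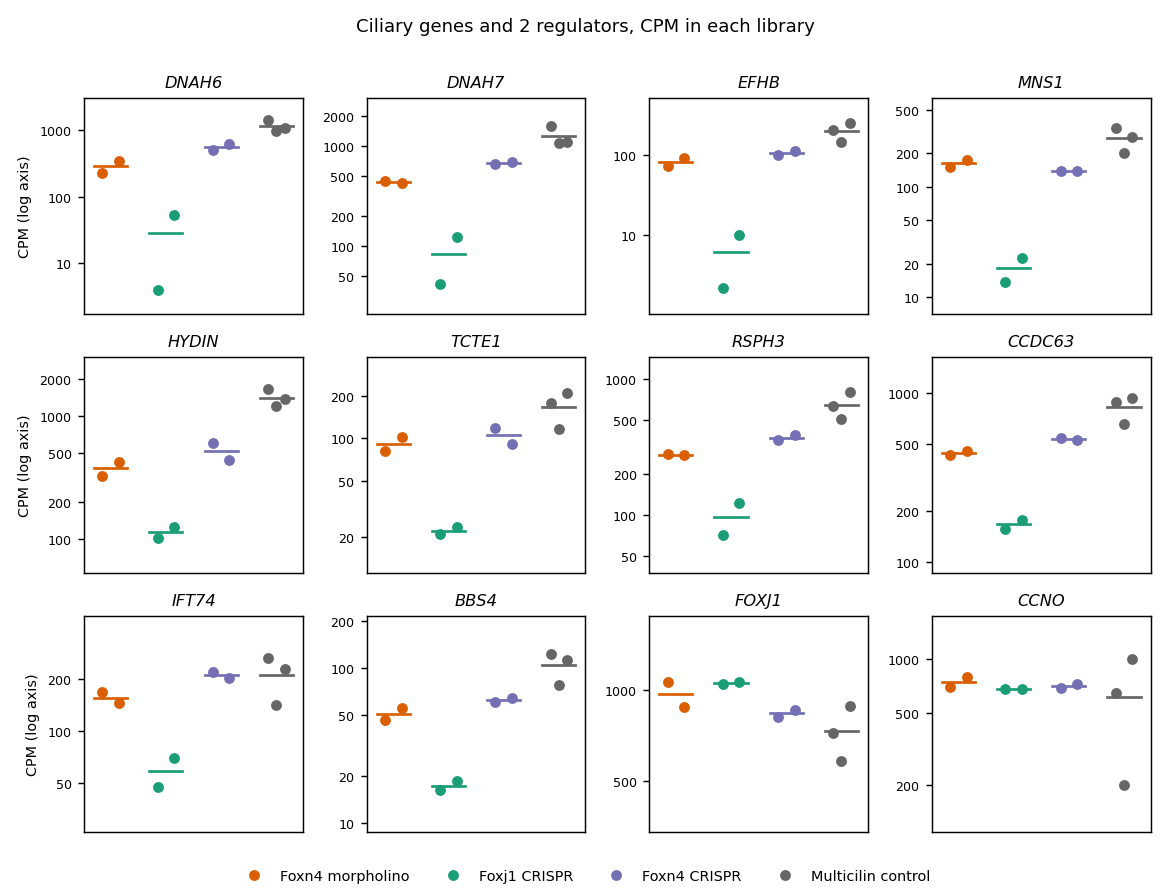
CPM on log axes in each of the 9 RNA libraries for 10 ciliary genes and for the regulators FOXJ1 and CCNO; points are libraries and bars are group means. The Foxj1 CRISPR libraries were lowest for the 10 ciliary genes (EFHB at 2.17 and 9.94 CPM against 72.8 and 89.8 CPM with the Foxn4 morpholino), while CCNO stood at 685 and 683 CPM against 698 and 800 CPM.

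A few genes of ciliary transport and of the cilium's base were higher with the morpholino. Intraflagellar transport carries cargo along the axoneme, and the BBSome is a coat complex that rides on it. Over their 3 lists, 51 models were tested, 6 were called higher and 0 lower (11.8% against 4.70% of all models called higher), and the median log2 difference was 0.51. Most of these calls were in the B complex of intraflagellar transport, with 4 of 21 models (19.0%). The A complex with the transport motors had 1 of 19 (5.26%, near the 4.70% of all models), and the BBSome list had 1 of 11 (9.09%). IFT74, a core subunit of the B complex, stood at 168 and 145 CPM with the Foxn4 morpholino and at 47.8 and 69.8 CPM with Foxj1 CRISPR (1.41, SE 0.33, adjusted p = 0.0307). IFT20, of the same complex, stood at 104 and 91.9 CPM against 40.1 and 34.0 CPM (1.40, SE 0.36, adjusted p = 0.0412). BBS4, a BBSome subunit, stood at 46.3 and 55.1 CPM against 16.2 and 18.5 CPM (1.55, SE 0.28, adjusted p = 0.012). All of the morpholino values of these 3 genes lay above the Foxj1 CRISPR values, and 1410 of all 1411 called models likewise had groups that did not overlap. In the Foxn4 CRISPR libraries IFT74 stood at 221 and 203 CPM and BBS4 at 60.4 and 63.6 CPM. TTC21B, of the A complex, was called at 24.2 and 13.7 CPM against 5.43 and 6.04 CPM (1.72, SE 0.39, adjusted p = 0.0278), with 5.66 and 7.61 CPM in the Foxn4 CRISPR libraries, and this call was lost on uniquely matching reads (1.36, adjusted p = 0.0816). The 6 calls became 0 without either Foxj1 CRISPR library, 1 or 2 without either morpholino library, 2 without either Foxn4 CRISPR library, 4 without Multicilin control replicate 1 and 13 without replicate 2 of the controls.

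Of 19 transition zone models, the gate at the base of the cilium, 3 were called higher (15.8% against 4.70%). INVS, the gene of inversin, stood at 27.0 and 25.4 CPM with the morpholino and at 11.3 and 8.98 CPM with Foxj1 CRISPR (1.37, SE 0.36, adjusted p = 0.0463), and TMEM17 stood at 6.78 and 10.0 CPM against 1.95 and 3.02 CPM (1.76, SE 0.40, adjusted p = 0.0278). With all matching reads the INVS call was lost (0.86, adjusted p = 0.0736). Genes of centriole assembly and the basal body stood near the background of all models, with 2 of 42 called higher, 1 lower and a median of 0.06. CCDC78, a protein of the deuterosome on which multiciliated cells build centrioles, stood at 72.2 and 144 CPM against 10.6 and 37.5 CPM (2.17, SE 0.54, adjusted p = 0.0383). CETN2, a centrin, was higher (1.14, SE 0.26, adjusted p = 0.0287) but not on uniquely matching reads (0.55, adjusted p = 0.268), and FBF1, of the appendages that anchor the basal body, was lower with 43.7 and 64.2 CPM against 159 and 176 CPM (-1.63, SE 0.42, adjusted p = 0.043). The 3 transition zone calls became 0 without either Foxj1 CRISPR library, Foxn4 morpholino replicate 1 or Foxn4 CRISPR replicate 1, and 1 without the other replicate of the 2 Foxn4 groups. The 3 centriole calls became 0 without Foxn4 morpholino replicate 1, Foxj1 CRISPR replicate 1 or either Foxn4 CRISPR library, 1 without Foxn4 morpholino replicate 2, Foxj1 CRISPR replicate 2 or Multicilin control replicate 1, and 6 without Multicilin control replicate 2.

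Regulators of the multiciliated fate showed 1 call, higher with the morpholino, among 23 models (4.35%, near the 4.70% of all models called higher). The median log2 difference was 0.44. The called model, of CCNO, stood under 2 CPM in every morpholino and Foxj1 CRISPR library. The abundant CCNO model, a cyclin-like gene needed for centriole amplification, stood at 698 and 800 CPM with the Foxn4 morpholino and at 685 and 683 CPM with Foxj1 CRISPR (0.13, SE 0.53, adjusted p = 0.91). MYB, an early regulator of multiciliated cells, stood at 340 and 240 CPM against 214 and 213 CPM (0.44, adjusted p = 0.512). The single call was lost without any 1 of the libraries but Multicilin control replicate 2.

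**Figure D3:**
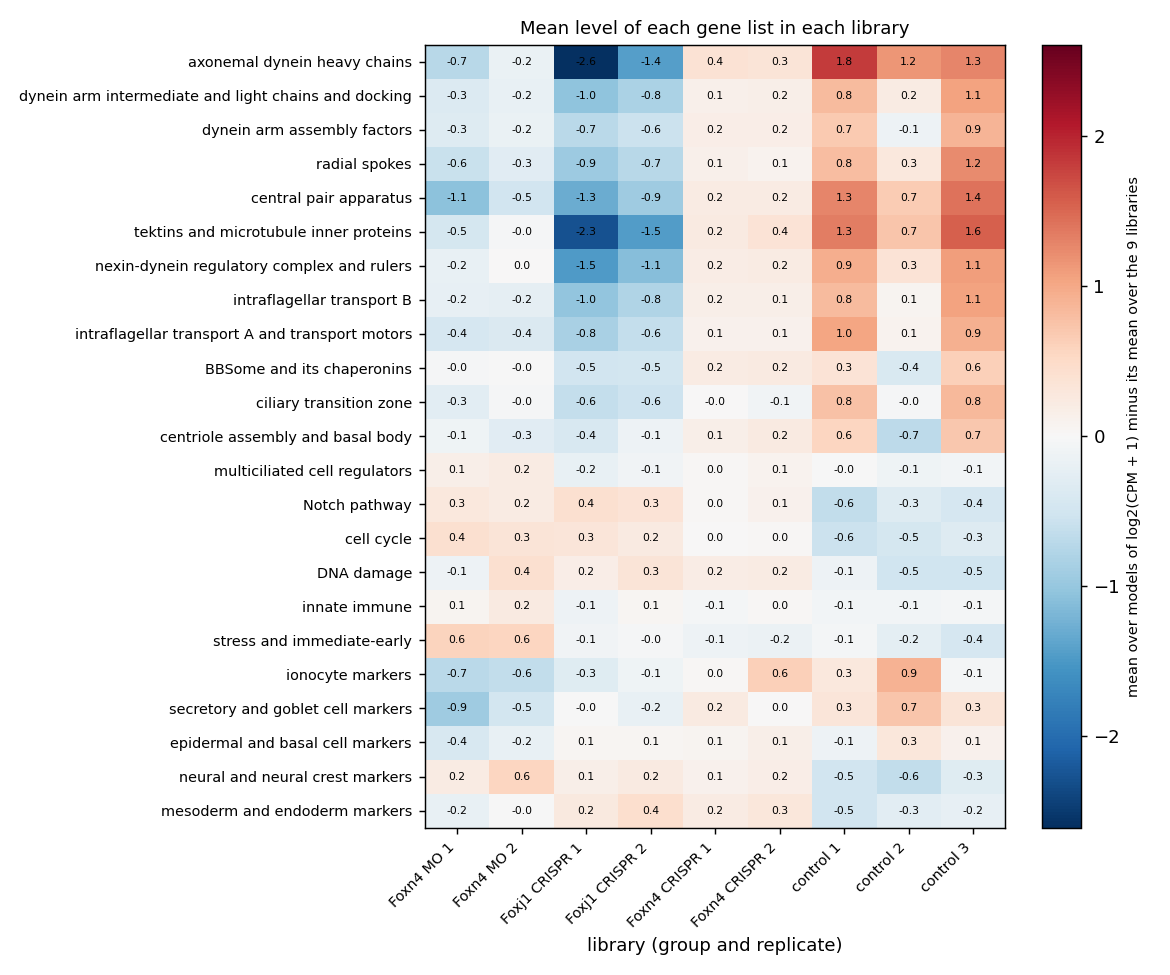
Mean level of each of the 23 gene lists (rows) in each of the 9 RNA libraries (columns), as the mean over models of log2(CPM + 1) minus its mean over the 9 libraries. The dynein heavy chain list stands at -2.61 and -1.44 in the Foxj1 CRISPR libraries and at -0.73 and -0.18 in the Foxn4 morpholino libraries, and the stress list is at 0.59 and 0.57 in the morpholino libraries and between -0.43 and -0.04 in the 7 other libraries.

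Notch signalling sets the spacing of multiciliated cells, and its list was near the background, with 1 of 56 models called higher, 2 lower and a median of -0.13. HES2, a repressor of the Hes family on scaffold 87017 (2605107 to 2607011, plus strand), stood at 42.3 and 50.6 CPM in the Foxj1 CRISPR libraries, at 4.22 and 6.40 CPM in the Foxn4 morpholino libraries, at 1.93 and 2.69 CPM in the Foxn4 CRISPR libraries and at 0.282 to 1.33 CPM in the controls. The Foxj1 CRISPR libraries were thus above all 7 others. Morpholino minus Foxj1 CRISPR was -3.12 (SE 0.52, adjusted p = 0.0088), a call lost without Foxn4 morpholino replicate 1, and Foxn4 CRISPR minus Foxj1 CRISPR was -4.31 (adjusted p = 0.0166). HES5, a Notch target with 14 models in the files, had a model at 30.3 and 26.7 CPM with the morpholino against 8.46 and 6.48 CPM (1.93, SE 0.39, adjusted p = 0.0192), a call lost on uniquely matching reads (1.25, adjusted p = 0.136) and with all matching reads (0.79, adjusted p = 0.146). Another HES5 model was called in the opposite direction at under 4 CPM (-3.77, SE 0.80, adjusted p = 0.0221). The 3 Notch calls became 0 without Foxn4 morpholino replicate 1 and 1 without Foxn4 morpholino replicate 2 or either Foxj1 CRISPR library.

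Of 80 cell cycle models, 3 were called higher and 0 lower, below the share of all models, and the median was 0.12. CDC25B, a phosphatase that starts mitosis, stood at 310 and 236 CPM with the Foxn4 morpholino, 57.9 and 82.6 CPM with Foxj1 CRISPR, 30.0 and 47.2 CPM with Foxn4 CRISPR and 3.62 to 9.20 CPM in the controls. Morpholino minus Foxj1 CRISPR was 1.96 (SE 0.44, adjusted p = 0.0282). CCNE2, a cyclin of the start of S phase, stood at 41.8 and 27.8 CPM against 17.3 and 15.5 CPM (1.08, SE 0.29, adjusted p = 0.0489), and its call was lost on uniquely matching reads (1.06, adjusted p = 0.0672). The other call was a low model of CCNB1, the cyclin of mitosis, at 2.46 and 2.58 CPM against 0.145 and 0 CPM (adjusted p = 0.0103), and the more abundant models of CCNB1 differed by 0.15 (adjusted p = 0.859) and -0.03 (adjusted p = 0.98). The 3 calls became 0 without Foxj1 CRISPR replicate 2, 1 without Foxj1 CRISPR replicate 1 or Foxn4 morpholino replicate 1, and 8 without Multicilin control replicate 2.

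The lists of other skin cells had negative medians. Of 32 ionocyte models, 2 were called higher and 3 lower (15.6% against 7.40% of all models), and the median log2 difference was -0.67. FOXI1, the forkhead factor that specifies ionocytes, stood at 5.01 and 2.58 CPM with the morpholino, 22.6 and 25.2 CPM with Foxj1 CRISPR, and 27.5 and 46.2 CPM with Foxn4 CRISPR on scaffold 48253 (-2.68, SE 0.68, adjusted p = 0.0409). A second FOXI1 model, on scaffold 179377, had a difference of -2.65 (adjusted p = 0.053), whereas a more abundant model, on scaffold 1168, stood at 226 and 180 CPM against 141 and 112 CPM (0.68, adjusted p = 0.354). FOXI1 had 8 models in the files, and those tested differed in direction.

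SLC26A4, the anion exchanger pendrin, stood at 1.87 and 1.8 CPM in the Foxn4 morpholino libraries and at 17.8 and 46.0 CPM in the Foxj1 CRISPR libraries on scaffold 99337 (125746 to 147474, plus strand). The groups did not overlap, and the Foxn4 CRISPR libraries (47.6 and 130 CPM) and controls (23.5 to 98.4 CPM) were above both morpholino values in every library. The log2 difference was -4.12 (SE 0.79, adjusted p = 0.015). Lower SLC26A4 models, on scaffolds 12518 and 33104, did not pass and differed in direction, at 1.71 (adjusted p = 0.461) and -0.41 (adjusted p = 0.828). ATP6V1A, a subunit of the proton pump, was lower at 55.9 and 51.9 CPM against 138 and 146 CPM (-1.40, SE 0.29, adjusted p = 0.0199). CA4, a carbonic anhydrase, went the other way at 36.6 and 15.5 CPM against 3.47 and 1.91 CPM (3.27, SE 0.49, adjusted p = 0.00564). Between Foxn4 morpholino and Foxn4 CRISPR, 10 of the 32 ionocyte models were called lower and 4 higher, against 2.82% and 2.65% of all models. The 5 ionocyte calls between morpholino and Foxj1 CRISPR became 2 without either morpholino library, 3 and 1 without Foxj1 CRISPR replicate 1 or 2, and 10 without Multicilin control replicate 2.

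Of 21 secretory and goblet cell models, 3 were called lower and 0 higher (14.3% against 2.70% of all models called lower), with a median of -0.50. ITLN1, a secreted lectin of goblet cells on scaffold 44558 (1232772 to 1249675, plus strand), stood at 29.3 and 37.4 CPM with the morpholino, 169 and 180 CPM with Foxj1 CRISPR, 185 and 262 CPM with Foxn4 CRISPR and 815 to 2360 CPM in the controls. Morpholino minus Foxj1 CRISPR was -2.38 (SE 0.45, adjusted p = 0.014). OTOG, a mucin-like protein of goblet cells, was at 1440 and 2010 CPM against 2740 and 2490 CPM, which did not pass (-0.60, adjusted p = 0.427). CAPN9, a calpain of secretory epithelia, was lower in 2 models, by -2.87 (SE 0.63, adjusted p = 0.0252) and -2.25 (SE 0.42, adjusted p = 0.0135). The 3 calls became 0 without Foxn4 morpholino replicate 1 or Foxj1 CRISPR replicate 2.

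Of 45 epidermal and basal cell models, 2 were called higher and 4 lower (13.3% against 7.40%), and the median was -0.22. The keratin KRT8 was abundant in all caps, at 1520 and 3010 CPM with the morpholino and 2710 and 2590 CPM with Foxj1 CRISPR (-0.23, adjusted p = 0.701). A low KRT18 model stood at 1.18 and 0.786 CPM against 9.12 and 8.54 CPM (-3.19, SE 0.46, adjusted p = 0.0048). COL17A1, a collagen of basal cell attachment, stood at 2.85 and 12.3 CPM with the morpholino, 74.7 and 60.7 CPM with Foxj1 CRISPR, 25.3 and 21 CPM with Foxn4 CRISPR and 1.20 to 2.14 CPM in the controls (-3.13, SE 0.55, adjusted p = 0.0113). KRT12 was called higher (2.41, SE 0.61, adjusted p = 0.0422) on estimated counts, and its sign was the opposite when all matching reads were counted (-0.90). The 6 epidermal calls became 2 without Foxn4 morpholino replicate 1 or Foxj1 CRISPR replicate 2, 1 without Foxj1 CRISPR replicate 1, and 3 without Foxn4 morpholino replicate 2 or either Foxn4 CRISPR library.

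Several genes of the body axis were lower with the morpholino. Of 23 mesoderm and endoderm models, 5 were called lower and 1 higher (26.1% against 7.40%), with a median of -0.47. The gene T, or Brachyury, a T-box factor of early mesoderm, stood at 0.196 and 0 CPM in the Foxn4 morpholino libraries and at 18.4 and 16.8 CPM in the Foxj1 CRISPR libraries on scaffold 312114 (437666 to 444994, plus strand). With so few counts in the morpholino group, the ratio of Foxj1 CRISPR to morpholino was 246, with a 95% exact interval of 67.8 to 2040 that covers counting error only. T reached 11.0 and 7.77 CPM in the Foxn4 CRISPR libraries and 1.07 to 6.94 CPM in the controls. The adjusted p of T was 0.00506, and a second T model was lower by -3.36 (SE 0.54, adjusted p = 0.00749). TBX6, a T-box factor of paraxial mesoderm, stood at 0.196 and 0.449 CPM against 10.6 and 11.2 CPM (-4.95, SE 0.74, adjusted p = 0.00546), with 3.25 and 3.33 CPM in the Foxn4 CRISPR libraries. GSC, a homeobox gene of the organizer, was higher with the morpholino, at 12.5 and 16.7 CPM against 1.52 and 2.06 CPM (3.02, SE 0.51, adjusted p = 0.0144), and was listed at 0 in all 3 controls. The 6 calls of this list became 2 and 3 without Foxj1 CRISPR replicate 1 or 2.

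The homeobox genes of the HOX clusters and the CDX family, which pattern the trunk and tail, were gathered after their values were seen. Of 35 tested models, 11 were called lower and 0 higher (31.4% against 2.70% of all models called lower), and the median log2 difference was -3.19. CDX2 stood at 0.196 and 1.07 CPM with the Foxn4 morpholino, 25.5 and 35.3 CPM with Foxj1 CRISPR, 15.8 and 17.6 CPM with Foxn4 CRISPR and 0.317 to 4.07 CPM in the controls (-5.43, SE 0.98, adjusted p = 0.012). For this CDX2 model, on scaffold 187759, the controls were nearer the morpholino libraries than the CRISPR libraries. The other CDX2 model, on scaffold 187321, was also called lower, at 0.491 and 0.617 CPM against 16.2 and 22.7 CPM. It stood at 18.1 and 14.7 CPM with Foxn4 CRISPR and at 1.4, 5.87 and 17.5 CPM in the controls. Multicilin control replicate 3 thus lay among the CRISPR values for that model. CRABP2, which binds retinoic acid, was at 0.393 and 0.225 CPM with the morpholino and at 18.1 and 24.9 CPM with Foxj1 CRISPR, while its control libraries ranged from 0.508 to 10.9 CPM (-6.16, SE 1.45, adjusted p = 0.0322). The number of HOX and CDX calls was 3 without Foxn4 morpholino replicate 1, 5 without replicate 2 of that group, and 4 without either Foxj1 CRISPR library. The count was 7 without either Foxn4 CRISPR library.

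Neural and neural crest markers were mixed, with 3 of 43 models called higher, 1 lower (9.30%, near the 7.40% of all models) and a median of 0.22. FOXD3, a forkhead factor of neural crest, stood at 25.2 and 38.5 CPM with the morpholino, 1.95 and 3.02 CPM with Foxj1 CRISPR, 2.77 and 2.06 CPM with Foxn4 CRISPR and 18.0 to 28.9 CPM in the controls (3.68, SE 0.40, adjusted p = 0.00158). For FOXD3 the morpholino and control libraries were high and both CRISPR groups low on estimated counts. On uniquely matching reads the FOXD3 call was lost (2.38, adjusted p = 0.173), and with all matching reads it held at 2.08 (adjusted p = 0.00192). NCAM1, a neural adhesion molecule, was lower at 3.14 and 5.33 CPM against 12.7 and 16.3 CPM (-1.76, SE 0.36, adjusted p = 0.0185), and SOX9 was higher at 5.31 and 6.12 CPM against 1.88 and 0.662 CPM (2.16, SE 0.55, adjusted p = 0.0425). With all matching reads the calls of NCAM1 (-0.36, adjusted p = 0.387) and SOX9 (0.98, adjusted p = 0.0836) were lost. The 4 calls became 2 without Foxn4 morpholino replicate 1 and 1 without either Foxj1 CRISPR library.

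Several genes of the response to cellular stress were higher with the morpholino than in either CRISPR group. Of 45 stress and immediate-early models, 8 were called higher and 0 lower (17.8% against 4.70% called higher among all models), with a median of 0.43. The same list had 0 calls between Foxn4 CRISPR and Foxj1 CRISPR, which is near the 1.45% of all models called there. Between Foxn4 morpholino and Foxn4 CRISPR, 9 were called higher and 0 lower, against 2.65% and 2.82% of all models. CHAC1, a glutathione-degrading enzyme and target of ATF4, stood at 94.8 and 31.7 CPM with the morpholino, 0.217 and 0.589 CPM with Foxj1 CRISPR, 0.120 and 0.476 CPM with Foxn4 CRISPR and 1.84 to 9.39 CPM in the controls. It lies on scaffold 218195 (2859801 to 2862953, minus strand), and its log2 difference was 7.26 (SE 0.96, adjusted p = 0.00348). Foxn4 morpholino replicate 1 was the higher of its pair for CHAC1 and for PSAT1.

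PSAT1, an enzyme of serine synthesis, stood at 130 and 29.1 CPM with the morpholino and at 0.289 and 1.32 CPM with Foxj1 CRISPR (6.61, SE 0.81, adjusted p = 0.00261), and at 1.08 and 1.27 CPM with Foxn4 CRISPR. ATF4, the transcription factor of the integrated stress response, stood at 633 and 611 CPM against 182 and 169 CPM, with 272 and 226 CPM in Foxn4 CRISPR and 277 to 347 CPM in controls (1.83, SE 0.24, adjusted p = 0.00348). DDIT3, a partner factor induced with it, stood at 5.89 and 2.81 CPM against 0.796 and 0.368 CPM (2.87, SE 0.76, adjusted p = 0.0478). JUN, an immediate-early factor, stood at 11.0 and 19.3 CPM against 2.53 and 2.13 CPM (2.70, SE 0.39, adjusted p = 0.0047). HSPA5, the chaperone of the endoplasmic reticulum, did not pass and was negative in both models (-0.55 and -1.09, adjusted p = 0.458 and 0.127). The count of 8 stress calls was 3 and 4 without Foxj1 CRISPR replicate 1 or 2, and 14 without Multicilin control replicate 2.

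Genes for making, importing and charging amino acids, gathered after their values were seen, had 11 of 49 models called higher and 1 lower (24.5% against 7.40%), with a median of 0.40. PSAT1 belongs to this list and to the stress list, so its calls count in both and the lists are not separate sets. PSPH, the last enzyme of serine synthesis, stood at 55.6 and 29.9 CPM against 6 and 8.61 CPM (2.54, SE 0.36, adjusted p = 0.00463). MARS, the methionine tRNA ligase, stood at 38.3 and 37.0 CPM against 10.2 and 13.4 CPM (1.67, SE 0.33, adjusted p = 0.0165). PSPH in the controls, at 39.2 to 50.6 CPM, was within the range of the morpholino libraries, whereas MARS in the controls (8.69 to 14.8 CPM) lay well below the morpholino libraries. HARS, the histidine tRNA ligase, was the model called lower, at 1.87 and 3.54 CPM against 16.7 and 18.5 CPM (-2.67, SE 0.40, adjusted p = 0.00533). The 12 calls of this list became 2 and 4 without Foxj1 CRISPR replicate 1 or 2, and 5 without Foxn4 morpholino replicate 1.

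The lists of DNA damage and innate immune genes held few calls. Of 36 DNA damage models, 0 were called higher and 1 lower by edgeR (2.78%, near the 2.70% of all models called lower), with a median of 0.06. CDKN1A, an inhibitor of cell cycle kinases, stood at 38.4 and 95.6 CPM against 35.8 and 45 CPM (0.73, adjusted p = 0.587). BTG2, an antiproliferative gene, was lower at 2.85 and 3.65 CPM against 7.81 and 13.0 CPM (-1.67, SE 0.40, adjusted p = 0.0332). Of 33 innate immune models, 2 were called higher and 0 lower (6.06% against 4.70% of all models called higher), with a median of 0.07. These were IL1B and NFKB1, both at under 4 CPM in every morpholino and Foxj1 CRISPR library, while the more abundant NFKB2 stood at 27.0 and 36.3 CPM against 35.7 and 39.2 CPM (-0.24, SE 0.24, adjusted p = 0.589). On uniquely matching reads NFKB2 was called lower (-2.57, adjusted p = 0.0128), and with all matching reads it differed by 0.30 (adjusted p = 0.26). DESeq2 called 4 of the 36 DNA damage models and 4 of the 33 immune models. Both are near its share over all models, 2378 of 19058. The BTG2 call was lost without any 1 of the 4 compared libraries, and both immune calls were lost without either Foxj1 CRISPR library.

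**Figure D4:**
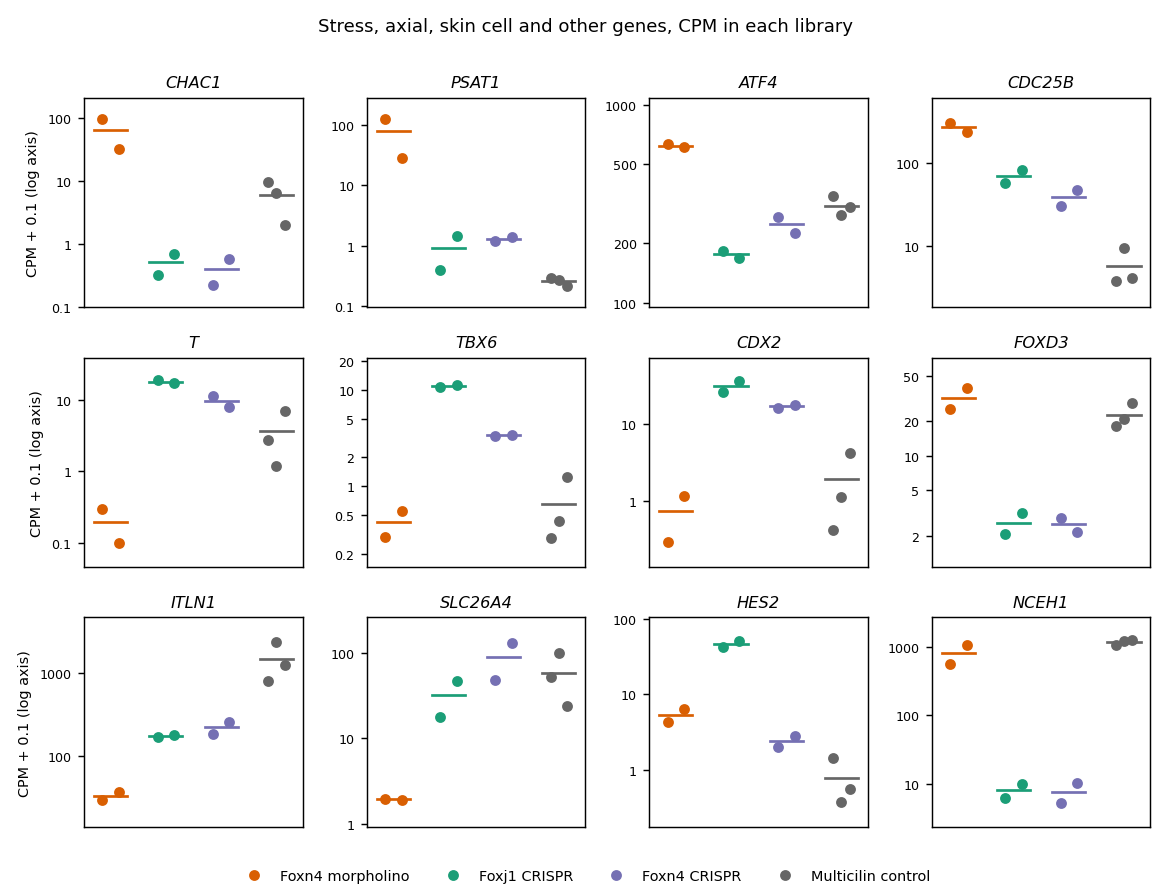
CPM plus 0.1 on log axes in each of the 9 RNA libraries for 12 genes of stress, cell cycle, body axis, skin cells and other functions; points are libraries and bars are group means. CHAC1 is high in the morpholino libraries (94.8 and 31.7 CPM) and under 1 CPM in all 4 CRISPR libraries. HES2 is highest in the Foxj1 CRISPR libraries (42.3 and 50.6 CPM). The NCEH1 model shown, on scaffold 58994, is low in both CRISPR groups, which does not hold for its other tested model.

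The largest differences over all models were of genes at or near 0 in one group. Among models higher with the morpholino, CCDC42, a coiled-coil protein of sperm flagella in mice, stood at 12.8 and 16.9 CPM and was listed at 0 in all 4 CRISPR libraries, so it was at least 141-fold higher than Foxj1 CRISPR (floor of 3 counts over the group), with 2.98 to 3.62 CPM in the controls. With all matching reads the log2 difference of CCDC42 was 1.83 (adjusted p = 0.00267), so the size of its difference depended on how shared reads were assigned. TMEM88, a membrane protein, stood at 10.5 and 16.9 CPM, at 0 in the 4 CRISPR libraries and at 4.96 to 9.01 CPM in the controls (at least 133-fold higher). FAM166A had 19.2 and 46.0 CPM against 0.0723 and 0 CPM. OTC, ornithine transcarbamylase of the urea cycle, was at least 53.2-fold and TMEM174 at least 74.7-fold higher. WBSCR17 was at least 59.4-fold higher by its group total, but that rested on Foxn4 morpholino replicate 2 (9.99 CPM against 0.393 CPM in replicate 1). The adjusted p-values of these 6 ranged from 0.00084 for CCDC42 to 0.0407 for WBSCR17. TMEM174 and WBSCR17 could not be tested on uniquely matching reads. With all matching reads their log2 differences were 6.88 and 7.23.

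Among models lower with the morpholino, ZNRD1, a subunit of RNA polymerase I, was listed at 0 in both morpholino libraries and all controls, against 7.74 and 7.29 CPM with Foxj1 CRISPR and 5.66 and 6.26 CPM with Foxn4 CRISPR (at least 70.1-fold lower, adjusted p = 0.00242). With all matching reads the ZNRD1 call was lost (-1.05, adjusted p = 0.0812). BTK, a tyrosine kinase known from B cells, stood at 5.86 and 4.56 CPM with Foxj1 CRISPR, at 0 and 0.168 CPM with the morpholino, under 1 CPM with Foxn4 CRISPR and at 0 in the controls (adjusted p = 0.0123). PAQR5, a membrane progestin receptor, stood at 1.08 and 3.87 CPM with the morpholino against 88.3 and 79.3 CPM with Foxj1 CRISPR and 130 and 113 CPM with Foxn4 CRISPR (-5.01, SE 0.61, adjusted p = 0.0025). P2RY12, a purinergic receptor, stood at 0 and 0.168 CPM against 8.61 and 4.93 CPM (adjusted p = 0.00546). For PAQR5 and P2RY12 the sign reversed when all matching reads were counted, so their direction depended on how shared reads were counted.

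Replication-dependent histone genes, gathered after their values were seen, had 16 of 28 models called higher and 0 lower (57.1% against 4.70% of all models called higher), with a median of 3.44. HIST2H3D on scaffold 45548, a histone H3 gene, stood at 63.7 and 96.2 CPM with the Foxn4 morpholino, 4.77 and 6.04 CPM with Foxj1 CRISPR, 6.27 and 4.76 CPM with Foxn4 CRISPR and 6.83 to 9.65 CPM in the controls (3.89, SE 0.35, adjusted p = 0.000814). HIST1H4K on scaffold 256136, a histone H4 gene, stood at 51.6 and 124 CPM against 2.17 and 7.07 CPM (4.25, SE 0.58, adjusted p = 0.0042). The morpholino libraries were above the 7 other libraries for both models. Models of HIST2H3D and HIST2H2AB on scaffold 111824 were listed at 0 in both Foxj1 CRISPR libraries and were at least 345-fold and 285-fold higher with the morpholino, but with all matching reads their log2 differences were 3.84 and 2.69. Both lie among near-identical copies and could not be tested on uniquely matching reads, so their split is uncertain. These messenger RNAs mostly lack a poly-A tail, and the libraries were made from poly-A RNA. Between Foxn4 morpholino and Foxn4 CRISPR 17 of the 28 models were called higher, against 2.65% of all models. Between Foxn4 CRISPR and Foxj1 CRISPR 0 were called in either direction by edgeR, near the 1.45% of all models called there. The 16 calls became 9 without Foxn4 morpholino replicate 2 and 8 and 10 without Foxj1 CRISPR replicate 1 or 2.

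Sharing of reads between gene copies touched many calls. Of the 1411 called models, 1002 belonged to symbols with 2 or more models. Such symbols were common, at 7888 of the 13473 distinct symbols in the files. The share of all tested models that belong to them was not computed, so this count does not set the called models apart. On uniquely matching reads 1319 of the 1411 could be tested, of which 973 were called with the same sign and 56 had the opposite sign. Of the 57 called models named by rule, 52 could be tested this way, all 52 kept their sign and 47 were called. When single libraries were left out, 18 of the 57 calls held in every fit, 33 were lost without Foxj1 CRISPR replicate 1, 31 without Foxj1 CRISPR replicate 2, 31 without Foxn4 morpholino replicate 1 and 23 without Foxn4 morpholino replicate 2.

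Foxn4 binding was taken from the authors' peak lists, called in 1 ChIP-seq library of Foxn4 alone and 1 of Foxn4 with Multicilin. A peak of Foxn4 alone lay within 1000 bp of the 5′ end of 50% of the models called higher with the morpholino (448 of 896, 95% exact interval 46.7 to 53.3%), of 61.6% of those called lower (317 of 515, 57.2 to 65.8%) and of 64.9% of all models tested (12363 of 19058). With Multicilin the shares were 34.4% (31.3 to 37.6%), 37.7% (33.5 to 42%) and 39.5% (38.8 to 40.2%). For models called higher, both intervals lay below the share of all models, and for models called lower both intervals included it at this distance. Within 5000 bp the intervals of models called lower lay above the share of all models, at 78.5 to 85.3% against 76.7% and, with Multicilin, at 50.5 to 59.3% against 49.5%. With the upper-score peaks of Foxn4 with Multicilin, the share for models called higher was 23.2% (20.5 to 26.1%). That interval included the 20.9% of all models. With the upper-score peaks of Foxn4 alone it was 33% (30 to 36.2%), below the 43% of all models. The intervals cover counting error over models only, and models are not independent. Most of the called ciliary models described above had a peak in both lists, among them EFHB, both models of MNS1 and HYDIN. TTC21B had a peak of Foxn4 alone only, and DNAH6 had none in either list. The share of all models with a peak in both lists was not computed, so whether this exceeds the background was not tested.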

How the data were processed

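RNA was measured in 9 libraries of 4 groups, and Foxn4 binding in 2 ChIP-seq libraries. Per the file headers, the RNA tables deposited by the authors hold an estimated count for each gene model, beside counts of uniquely matching and of all matching reads; eXpress is named in the submitters' processing notes. Gene models carry scaffold coordinates of the version 7.1 assembly. The score of each peak is the authors' own, from HOMER, per the file headers. STAR, Bowtie2 and DESeq also appear in the submitters' processing notes, with no versions given. The authors' tables of comparisons and the ChIP inputs were not used here.

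After rounding the estimated counts, edgeR 4.0.16 (R 4.3.3) was run with TMM scaling, filterByExpr at its defaults, all 9 libraries, group as the only term, 5 residual degrees of freedom, the quasi-likelihood test and calls at a Benjamini-Hochberg adjusted p under 0.05. CPM are TMM-scaled and cannot be compared between genes. DESeq2 1.42.0, limma 3.58.1, other scaling, filters, read counts and sample sets were tried as alternatives. The procedure was tested on simulated data.

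Named models were all of FOXJ1, FOXN4 and MCIDAS; the 8 largest differences in each direction among called models with a symbol, at least 5 CPM in the higher group and groups that did not overlap; and, for each of 23 lists, the 2 largest called in each direction at that level, or the most abundant member where none was called. Any other gene named was chosen after its values were seen, as were 3 of the lists (histones, HOX and CDX, amino acids). The members and all lists were chosen with earlier results of these data known. Results for a few genes are not reported here. Intervals cover counting error only.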

Additional observations from a re-analysis of the deposited data

How the results depend on the processing

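The number of models called between Foxn4 morpholino and Foxj1 CRISPR, 1411 as reported, was within 1.5 times of that with size factors in place of TMM (1414), limma-voom (1262), no low-count filter (1557), uniquely matching reads (1432) and the 4 compared libraries alone (1425). It was 2378 with DESeq2 and 5032 with all matching reads, and between 178 and 2188 when single libraries were left out. Over the 23 lists, 86 calls as reported became 146 with all matching reads, 135 with the 6 libraries of the new study alone, and between 17 and 133 when single libraries were left out. Among the called models that were named or added, the log2 difference changed sign with all matching reads for P2RY12 (1.39), PAQR5 (0.19), KRT12 (-0.90), SLC3A2 (-0.77) and a low KRT8 model (0.04), and the cause was not tested.

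The replicate numbers are shared by the groups, but nothing in the labels says what they mark. Deviations of same-numbered libraries correlated at 0.51 between Foxj1 CRISPR and Foxn4 CRISPR. The correlation was 0.17 between Foxn4 morpholino and Foxj1 CRISPR and 0.09 between Foxn4 morpholino and Foxn4 CRISPR. With the replicate block the calls numbered 1179, and 76 over the lists. With the replicate block in the 6 new libraries alone, an alternative chosen after seeing the data, they numbered 3276 and 185.

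With a window of 5000 bp, Foxn4 peaks lay near 61% of models called higher, 82.1% called lower and 76.7% of all, and with Multicilin near 43.6%, 55% and 49.5%. With only peaks at or above the median score the shares were 33%, 45.4% and 43%, and with Multicilin 23.2%, 21.7% and 20.9%. Depth and 2 libraries a group limit what could be called.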

Other observations

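The patterns over the groups given here were chosen after their values were seen. At 5 CPM or more in every morpholino and control library and under 2 CPM in all 4 CRISPR libraries were 15 models. Among them HIGD1B stood at 39.6 and 59.4 CPM with the morpholino, 46.4 to 51.5 CPM in the controls, 0.579 and 1.1 CPM with Foxj1 CRISPR and 1.57 and 0.476 CPM with Foxn4 CRISPR.

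NCEH1, a cholesterol ester hydrolase, had a model on scaffold 58994 (2204041 to 2224931, plus strand) at 572 and 1060 CPM with the morpholino, 6.15 and 9.71 CPM with Foxj1 CRISPR, 5.06 and 10.1 CPM with Foxn4 CRISPR and 1060 to 1290 CPM in the controls. Its other tested model was at 8.59 to 11.4 CPM with the morpholino and at 27.3 and 61.8 CPM with Foxj1 CRISPR, which did not pass edgeR's quasi-likelihood test (adjusted p = 0.0871) on estimated counts but did on uniquely matching reads (-3.62, adjusted p = 0.0209).

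At 5 CPM or more in all CRISPR and control libraries and under 2 CPM with the morpholino were 11 models. At 5 CPM or more in all CRISPR libraries and under 2 CPM in all others were 8 models. These patterns select on the difference between the compared groups, so the number called among them is not given. GBX2, a homeobox gene of the hindbrain border, had a model at 0.589 and 1.57 CPM with the morpholino, 9.77 and 15.1 CPM with Foxj1 CRISPR, 12 and 18.3 CPM with Foxn4 CRISPR and 69.9 to 82 CPM in the controls. At 5 CPM or more only with the morpholino, and under 2 CPM in every other library, were 21 models, and 0 models showed that pattern for Foxj1 CRISPR.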
